A study of Mus musculus with 35 samples.

Results

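Nuclear poly(A) RNA of mouse N2a neuroblastoma cells was compared between Chtop knockdown and control siRNA, using the 8 nuclear libraries of these conditions out of 35 libraries in the series. The 4 knockdown libraries came from cells transfected with a siGENOME siRNA against Chtop, and the 4 control libraries from cells given a non-targeting siRNA pool. Each condition was measured in 2 Flp-In rtTA lines with 2 biological replicates each, which the labels number BR4 and BR6. Both lines, in both conditions, carry a doxycycline-inducible, siRNA-resistant FLAG-Chtop cDNA, which lacks exon 5 in the mEx5 line and holds exon 5 in the pEx5 line, and none of the 8 cultures received doxycycline. Per the labels, knockdown cultures were 3 dishes and control cultures 2 dishes, the medium was changed at 24 h, and cells were harvested at 72 h. The number of dishes goes with the condition in every culture, so its part in the results cannot be told apart from that of the siRNA. Of each culture 20% was kept as the total lysate, and the rest was split into nuclei and cytoplasm with a detergent buffer. The labels name no spike-in RNA, so changes are measured against the bulk of the other genes, and a shift of the whole nuclear RNA cannot be seen.

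Chtop is a small nuclear protein rich in arginine and glycine that is methylated by the arginine methyltransferase Prmt1. It binds RNA as part of the TREX complex, which joins transcription and splicing to mRNA export through the receptor Nxf1. It is also known as a member of a complex of methylated Chtop with Prmt5 and Wdr77. In nuclei, poly(A) RNA is the sum of transcripts being finished, transcripts waiting for export, transcripts detained with introns and RNAs that never leave. A nuclear level can therefore change with synthesis, export or decay, which these libraries do not separate. In a bulk sample, fewer cells of a type and less RNA per cell cannot be told apart.

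Counts summed to between 16605353 and 24941762 per library in knockdown nuclei and between 14420143 and 28705620 in control nuclei. Mitochondrially encoded RNA took 0.628% to 1.60% of knockdown and 0.701% to 1.53% of control counts. The 10 most abundant genes took 10.9% to 11.9% of the counts of knockdown nuclei and 8.21% to 9.19% of those of control nuclei. Of 17 neuroblastoma markers, 13 had at least 1 RPKM (a read count per length of transcript and per depth of library) in every library, and 3 stayed under 1 RPKM in every library, among them the lineage factor Hand1 and Th, which makes the precursor of noradrenaline. Markers of fibroblasts, glia, endothelium and blood were mostly absent: 18 of 26 stayed under 1 RPKM, and Col1a2, Aqp4, Kdr and Hbb-bs were listed at 0 throughout. Their summed level was 57.8 to 67.9 RPKM in knockdown and 36.1 to 49.4 RPKM in control nuclei. The part of these RNAs in the results below was not tested.

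The targeted gene was lower in knockdown nuclei. Chtop (ENSMUSG00000001017.15, mm10 chromosome 3, 90498956 to 90509498, minus strand) had 63.2, 71.3, 58.1 and 60.2 CPM (counts scaled to a common library size) in knockdown nuclei, in the order mEx5 replicates 1 and 2 and pEx5 replicates 1 and 2, which holds for all values given per library. Control nuclei had 127, 117, 113 and 94.0 CPM. Every knockdown library lay below every control library, and the Chtop means were 63.2 ± 5.78 and 113 ± 13.8 CPM (SD, n = 4 each). The log2 fold change of Chtop, knockdown over control, was -0.83 (SE 0.0773, adjusted p = 5.6e-06, edgeR's quasi-likelihood test). In total lysate of the same cultures the change was -2.35, and in cytoplasm -2.55. The nuclear change of Chtop lay 1.50 above that of total lysate (SE 0.139, adjusted p = 8.8e-06) and 1.72 above that of cytoplasm (SE 0.145, adjusted p = 3.7e-06).

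**Figure D1:**
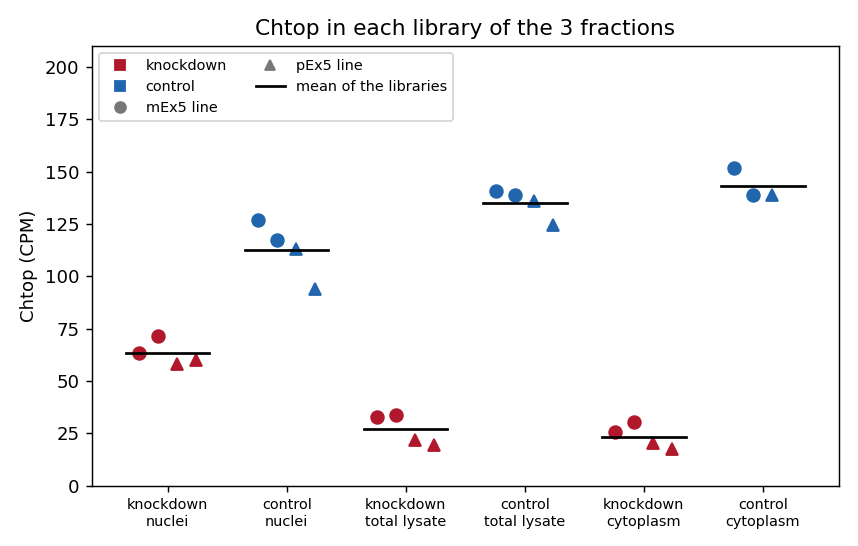
Chtop in CPM (vertical axis) in each knockdown and control library of nuclei, total lysate and cytoplasm, with circles for the mEx5 line, triangles for the pEx5 line and black lines for the mean of the libraries. Knockdown nuclei lie between 58.1 and 71.3 CPM, above the knockdown libraries of the other fractions and below the control nuclei at 94.0 to 127 CPM.

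With libraries scaled to the bulk of the genes, which favours an even split, about as many nuclear RNAs rose as fell. Of 9238 genes tested, 2317 rose and 2176 fell at an adjusted p under 0.05, which is 25.1% and 23.6%, or 48.6% in either direction. The changes were mostly small: the median size among called genes was 0.38 on the log2 scale, while 65 genes rose and 86 fell at least 2-fold. In 2755 genes (29.8%) the 4 knockdown and 4 control libraries did not overlap. Without the replicate number as a term the counts were 1435 higher and 1423 lower. With library totals alone as the scale they were 1923 higher and 2564 lower. Counts of gene lists below are over members in the count table unless RPKM is named, and stand against these shares of all genes. P-values measure the spread left between libraries after terms for line and replicate number. A shift shared by libraries of the same number is not part of that spread. Within a condition the cultures differ in line and number only.

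The genes that rose furthest belong to no single family. Skida1, for a protein with a SKI and DACH type domain (chromosome 2, 18040676 to 18049051), had 129, 144, 126 and 114 CPM in knockdown nuclei against 31.7, 36, 21.8 and 25.7 CPM in control nuclei, a log2 fold change of 2.17 (SE 0.0909, adjusted p = 8.0e-08). Rdm1, for a protein with a RAD52 motif (chromosome 11, 101627195 to 101636100), had 42.2, 35.7, 43.3 and 40.5 CPM against 9.87, 11.4, 9.58 and 8.82 CPM, a change of 2.02 (SE 0.103). Mbd6, a methyl-CpG-binding domain gene whose protein binds a histone H2A deubiquitinase complex (chromosome 10, 127281956 to 127289018), had 977, 912, 978 and 909 CPM against 292, 339, 262 and 315 CPM, a change of 1.65 (SE 0.0874, adjusted p = 1.7e-07). These genes were chosen among those with no overlap between groups, so that separation is not a result. Fndc10, for a membrane protein with a fibronectin domain, averaged 37.8 ± 3.88 against 10.6 ± 1.40 CPM, and Rbms2, an RNA-binding protein gene, 14.2 ± 1.72 against 5.24 ± 0.190 CPM. Pdlim3, whose protein binds alpha-actinin, averaged 45.9 ± 11.8 against 17.6 ± 0.928 CPM. Rap1gap, a GTPase-activating protein gene for Rap1, averaged 49.5 ± 6.25 against 20.5 ± 2.58 CPM.

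Noncoding RNAs stand among the same 15 genes. Snhg20, a snoRNA host gene, had 140, 88.9, 124 and 91.1 CPM in knockdown nuclei against 40.2, 35.0, 38.7 and 30.6 CPM in control nuclei (log2 fold change 1.60, SE 0.0803). Eldr, a long noncoding RNA gene, averaged 20.3 ± 1.15 against 5.92 ± 1.37 CPM, Platr14 16.1 ± 5.74 against 6.45 ± 1.63 CPM, and Dancr 10.6 ± 2.47 against 4.33 ± 1.28 CPM. Rn7s1, a gene for 7SL, the RNA core of the particle that targets secretory proteins, averaged 227 ± 54.3 against 64.0 ± 24.1 CPM. It has near copies in the genome, so its count is uncertain. H2afj, for the histone variant H2A.J, averaged 122 ± 45.2 against 41.0 ± 4.39 CPM, Fmc1, an ATP synthase assembly factor gene, 12.2 ± 3.16 against 5.04 ± 1.27 CPM, and Tmem80, for a membrane protein, 10.1 ± 1.34 against 4.17 ± 0.615 CPM. The rule that names these 8 genes asks for groups that do not overlap, so their separation was given by that choice.

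Among the genes that fell furthest were an alpha-tubulin and genes of prostanoid and phosphatidate metabolism. Tuba8 (chromosome 6, 121210696 to 121226854) had 9.17, 13, 11.8 and 13.9 CPM in knockdown nuclei against 40.0, 39.8, 47.5 and 53.7 CPM in control nuclei, a log2 fold change of -1.91 (SE 0.0945, adjusted p = 1.5e-07). Ptgs1, the cyclooxygenase 1 gene, had 20.0, 28.1, 39.2 and 65.1 CPM against 98.2, 97.0, 153 and 166 CPM (-1.83, SE 0.122), and Ptgir, the prostacyclin receptor gene, averaged 42.0 ± 11.8 against 118 ± 36.4 CPM (-1.49). For Ptgs1 the pEx5 libraries stood above the mEx5 libraries within each group. Lpin1, a phosphatidate phosphatase, averaged 33.5 ± 9.53 against 89.9 ± 20.1 CPM (-1.44), and Abat, which degrades the transmitter GABA, 31.2 ± 7.13 against 93.1 ± 20.2 CPM (-1.59). The matrix and cell-surface genes Hspg2 (perlecan), Cemip2 (a hyaluronidase) and Procr (the protein C receptor) changed by -1.53, -1.52 and -1.70. Dusp4 and Ier3, both induced by growth signals, changed by -1.53 and -1.52. Wipi1, an autophagy gene, changed by -1.42, Stom (stomatin) by -1.47, Cstb (cystatin B) by -1.45 and Ephx1 (an epoxide hydrolase) by -1.43. Igfbp7, for a secreted binding protein, had 16.8, 14.4, 13.4 and 16.7 CPM in knockdown nuclei against 33.2, 30.7, 71.1 and 58.5 CPM in control nuclei (-1.56). Its control level differed between the lines (pEx5 above mEx5), while the 4 knockdown libraries lay close together.

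**Figure D2:**
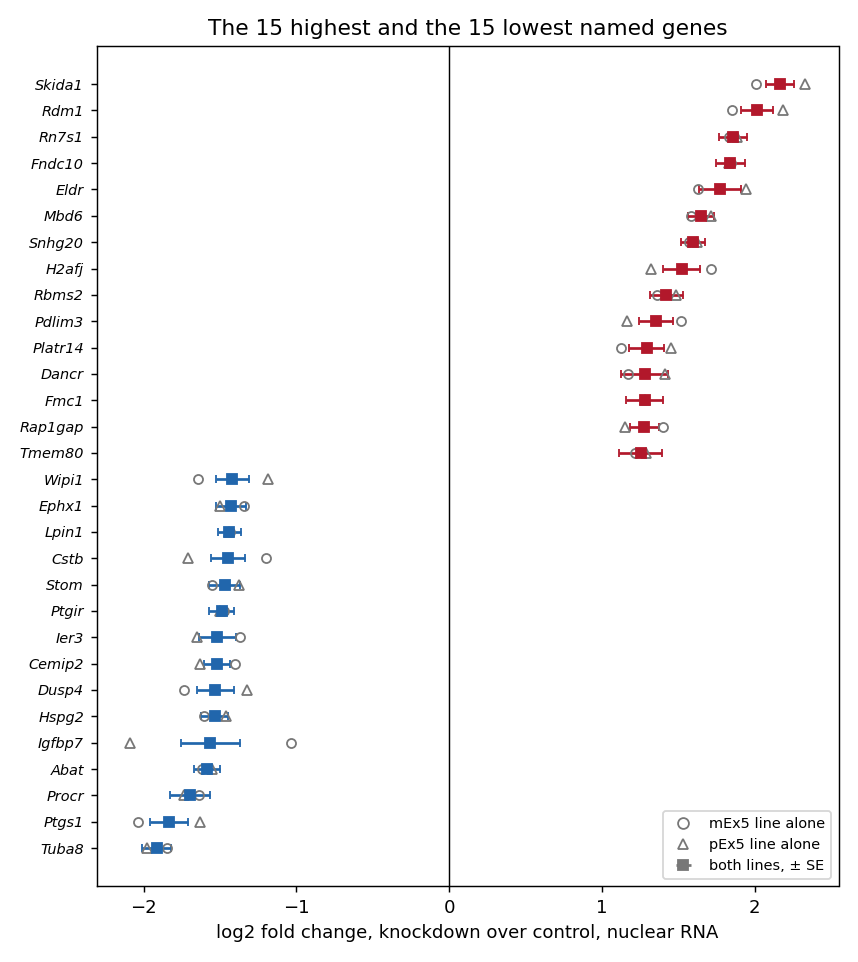
Log2 fold change of knockdown over control in nuclear RNA (horizontal axis) for the 15 highest and the 15 lowest named genes, with squares and bars for both lines together ± SE and open symbols for each line alone. Skida1 stands highest at 2.17 and Tuba8 lowest at -1.91, and for Igfbp7 the lines stand apart at -2.09 in pEx5 and -1.04 in mEx5 cells.

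Most genes of cholesterol synthesis fell in knockdown nuclei. Cells make cholesterol from acetyl-CoA through the mevalonate arm to farnesyl diphosphate and then through squalene, and the SREBP factors transcribe most of these genes when membrane sterol is low. SREBP sites in promoters usually lie near binding sites for the factor NF-Y, whose core is CCAAT. The 250 bases upstream of 3 genes of the mevalonate arm are shown, because they hold the motifs that were searched for: Hmgcs1 at chr13:119690101-119690350 on the plus strand, Idi1 at chr13:8885356-8885605 on the plus strand and Mvd at chr8:122443423-122443672 on the minus strand. The sequences are from RefSeq on GRCm38.p6, run 5′ to 3′ toward the start of the gene, and have in capitals every match to the sterol regulatory element TCACNCCAC or to CCAAT, on either strand.
Hmgcs1: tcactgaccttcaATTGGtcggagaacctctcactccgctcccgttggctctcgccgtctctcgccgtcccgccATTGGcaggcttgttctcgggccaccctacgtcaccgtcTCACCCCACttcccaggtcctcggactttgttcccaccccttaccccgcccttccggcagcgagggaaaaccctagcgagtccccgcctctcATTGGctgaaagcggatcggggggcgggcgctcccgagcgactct
Idi1: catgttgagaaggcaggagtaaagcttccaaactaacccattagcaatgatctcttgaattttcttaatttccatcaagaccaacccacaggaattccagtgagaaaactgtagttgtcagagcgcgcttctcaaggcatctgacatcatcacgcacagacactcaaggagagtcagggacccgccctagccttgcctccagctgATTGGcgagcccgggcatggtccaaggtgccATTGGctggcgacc
Mvd: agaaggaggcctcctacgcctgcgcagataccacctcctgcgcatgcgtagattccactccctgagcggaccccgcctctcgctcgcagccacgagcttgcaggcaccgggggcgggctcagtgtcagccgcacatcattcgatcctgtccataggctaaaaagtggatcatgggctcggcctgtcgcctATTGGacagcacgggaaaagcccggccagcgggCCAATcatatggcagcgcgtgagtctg
The Hmgcs1 promoter holds 1 sterol regulatory element, 137 bases before the start, and 3 CCAAT matches. Idi1 and Mvd hold 2 CCAAT matches each. Of 36 genes of the cholesterol and sterol transport lists that were tested, 28 had an entry, with 36 promoters in all. CCAAT was found in 63.9% of these promoters, against 36.3% of the promoters of all genes tested and 33.9% of all promoters in the table. The sterol regulatory element was found in only 1 of the 36 promoters, that of Hmgcs1 (2.78%), against 1.03% and 1.05%. A match is a description of letters and not of binding, and nothing about the factors follows from a missing match.

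All 9 genes of the mevalonate arm fell, with a median log2 fold change of -0.65, where the median over all genes tested was 0.01. Hmgcs1, which makes HMG-CoA, had 86.6, 92.5, 78.7 and 82.0 CPM in knockdown nuclei against 156, 152, 133 and 169 CPM in control nuclei (-0.84, SE 0.0724, adjusted p = 3.3e-06). The groups did not overlap, and each group was tight. Pmvk, the phosphomevalonate kinase gene, had 24.3, 34.0, 17.5 and 20.2 CPM against 49.1, 59.1, 48.0 and 56.3 CPM (-1.17, SE 0.112). Mvd, the diphosphomevalonate decarboxylase gene, averaged 51.2 ± 5.78 against 93.9 ± 12.1 CPM (-0.87), and Acat2, the first thiolase, 46.9 ± 4.04 against 73.5 ± 7.32 CPM (-0.65). Fdps, Idi1, Ggps1 and Mvk, further members of the arm, changed by -0.50, -0.47, -0.40 and -0.40.

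Beyond squalene, 10 of 13 genes fell and none rose. Msmo1, which removes methyl groups from the sterol ring, had 41.3, 35.9, 34.6 and 34.0 CPM in knockdown nuclei against 69.2, 69.3, 75.9 and 78.5 CPM in control nuclei (-1.01, SE 0.0846). Dhcr7, the last reductase, averaged 40.3 ± 3.70 against 75.6 ± 7.73 CPM (-0.91). Fdft1 (squalene synthase), Lss (lanosterol synthase) and Cyp51 (lanosterol demethylase) changed by -0.60, -0.58 and -0.61. Ebp and Lbr were not called, at -0.13 and 0.22. The count of genes that rose was 1 when the mEx5 control or knockdown library of replicate 1 was left out. Tm7sf2, a sterol reductase gene, changed by -0.34 in nuclei and by -1.16 in total lysate.

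Sterol regulators and transporters followed, with 10 of 14 tested genes lower and none higher. Srebf2, the SREBP gene that drives sterol synthesis, changed by -0.45, while Srebf1 at 0.08 and Scap, the sterol sensor, at -0.18 were not called. Insig1, which holds SREBP in the ER, changed by -0.36. The sterol carriers Stard4, Npc1 and Npc2 changed by -0.68, -0.55 and -0.54. In a fit of the 4 groups without the replicate number, 6 of these genes were called lower. Of 13 fatty acid synthesis and desaturation genes, 6 fell, among them Me1 (malic enzyme, -0.74), Acss2 (an acetyl-CoA synthetase, -0.61), Acly (ATP citrate lyase, -0.54) and Elovl5 (an elongase, -0.54). Scd2, a desaturase, averaged 1281 ± 117 against 1697 ± 138 CPM (-0.41). In total lysate all 9 mevalonate genes were called lower as well, with a median change of -0.65, and in none of them did nuclei and total lysate differ in a called way.

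**Figure D3:**
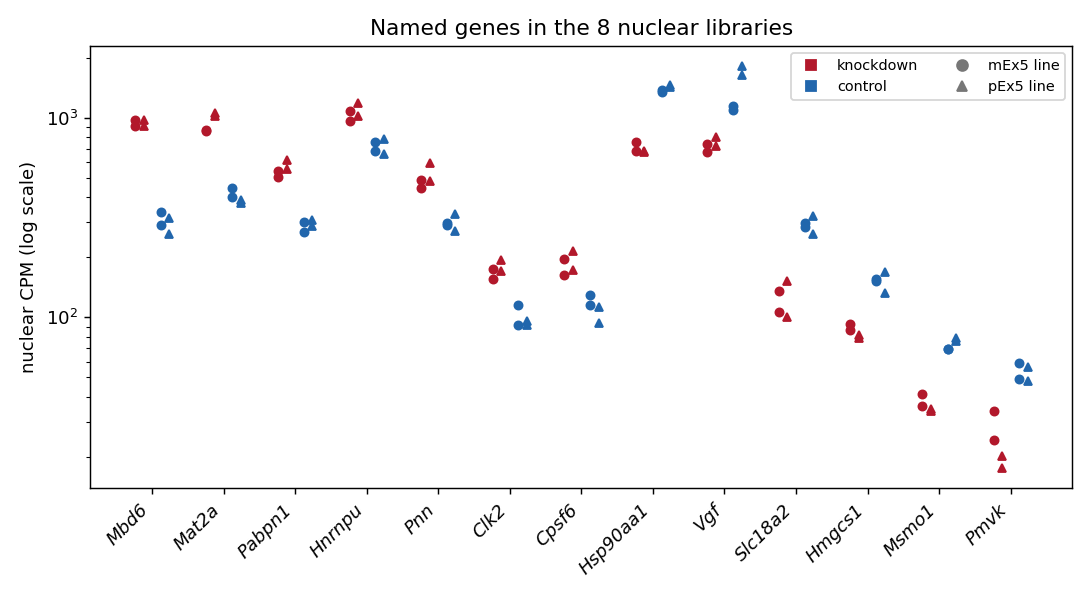
CPM on a log axis in the 8 nuclear libraries for 13 named genes, with knockdown in red, control in blue, circles for the mEx5 line and triangles for the pEx5 line. From Mbd6 to Cpsf6 the knockdown libraries lie above the control libraries, as for Mat2a at 862 to 1054 against 374 to 447 CPM, and from Hsp90aa1 to Pmvk they lie below.

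Genes for RNA-processing factors moved in both directions, and most of those furthest from 0 rose. Many such genes are known to keep some of their own transcripts in the nucleus with detained introns, but counts here are per gene and do not separate those transcripts from spliced ones. Of 34 genes known for detained introns that were tested, 13 rose and 4 fell. Mat2a, the S-adenosylmethionine synthetase whose transcript is spliced according to methyl donor supply, had 862, 873, 1054 and 1022 CPM in knockdown nuclei against 403, 447, 374 and 389 CPM in control nuclei (log2 fold change 1.24, SE 0.0936, adjusted p = 1.4e-06). Clk2, a kinase of SR proteins, averaged 174 ± 15.3 against 98.9 ± 11.2 CPM (0.81), and Pnn, pinin of the exon junction, 503 ± 65.2 against 297 ± 24.9 CPM (0.75). Ogt, the O-GlcNAc transferase gene, averaged 409 ± 59.9 against 258 ± 22.4 CPM (0.66). In total lysate Mat2a, Clk2, Pnn and Ogt changed by 1.00, 0.22, 0.35 and 0.45. For Clk2 and Pnn the nuclear change lay above that of total lysate, by 0.57 (adjusted p = 0.00089) and 0.38 (adjusted p = 0.011), while for Mat2a and Ogt the difference of 0.20 and 0.18 was not called.

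Genes of 3' end formation rose in 10 of 23 cases and fell in 3, or 6 when library totals alone set the scale. Pabpn1, the nuclear poly(A) binding protein gene (chromosome 14, 54892500 to 54898169), had 544, 504, 612 and 555 CPM in knockdown nuclei against 267, 303, 286 and 309 CPM in control nuclei (0.93, SE 0.0765, adjusted p = 2.5e-06). In total lysate it changed by 0.25, and the difference of 0.65 between nuclei and total lysate was called. Cpsf6 and Cpsf7, subunits of cleavage factor Im, averaged 187 ± 23.6 against 113 ± 14.7 CPM (0.72) and 221 ± 14.4 against 157 ± 16.8 CPM (0.49). Pcf11 and Cstf3, of the termination and cleavage machinery, changed by 0.56 and 0.47. Of 17 genes of the RNA exosome and its cofactors, 5 rose (29.4%, near the 25.1% of all genes) and none fell. Zfc3h1, of the complex that targets poly(A) RNA in the nucleus for decay, averaged 98.0 ± 8.82 against 64.7 ± 6.10 CPM (0.60), and Exosc5 47.0 ± 4.38 against 33.5 ± 3.82 CPM (0.49). Only 2 of the exosome genes were called higher without the replicate number as a term, and 2 or 3 without any one of the pEx5 libraries. With library totals as the scale 2 rose and 1 fell.

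Of 30 hnRNP genes 11 rose and 3 fell, or 5 higher without the replicate number and 1 lower in the fit of 4 groups. Hnrnpu, a scaffold protein of nuclear RNA, had 1090, 965, 1195 and 1023 CPM in knockdown nuclei against 756, 687, 788 and 662 CPM in control nuclei (0.56, SE 0.0732). Tardbp, the TDP-43 gene, averaged 420 ± 39.4 against 291 ± 28.8 CPM (0.53), Hnrnpr 253 ± 18.2 against 179 ± 15.4 CPM (0.50) and Hnrnpa3 642 ± 76.6 against 503 ± 42.8 CPM (0.35). Of 16 SR protein genes 5 rose and 2 fell, 43.8% in either direction against 48.6% of all genes, or 2 and 1 without the replicate number. Srsf7 averaged 277 ± 13.3 against 198 ± 19.6 CPM (0.49), and Srsf1 371 ± 11.5 against 280 ± 27.3 CPM (0.41). Srsf5 went the other way, at 340 ± 20.6 against 439 ± 63.5 CPM (-0.36).

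Genes for partners of Chtop moved in both directions. Of 15 TREX and THO genes 6 rose and 3 fell, or 3 and 1 without the replicate number, and 3 rose when library totals set the scale or when the mEx5 control library of replicate 1 or either mEx5 knockdown library was left out. Thoc1, of the THO core, averaged 152 ± 24.2 in knockdown nuclei and 102 ± 16.1 CPM in control nuclei (0.57, SE 0.0639), and Ddx39, an export helicase, 184 ± 4.24 and 150 ± 7.5 CPM (0.30). Alyref, the adaptor whose protein binds Nxf1, was not called at 0.17. Alyref2, its retrogene copy, averaged 7.86 ± 1.44 against 4.68 ± 0.191 CPM (0.73), a count that may hold reads of Alyref. Luzp4, an export adaptor gene, changed by -0.58. Of 19 genes of export receptors, adaptors and TREX-2, 3 rose, of which Gle1, an activator of the export helicase at the pore, averaged 122 ± 13.8 against 91.3 ± 4.37 CPM (0.42). That count was 1 without the replicate number, and 1 without the mEx5 knockdown library of replicate 2, the pEx5 control library of replicate 2 or the pEx5 knockdown library of replicate 1. Of 14 genes of arginine methylation and of the complex that binds methylated Chtop, 6 rose and 3 fell. Wdr77 and Prmt5, which form the methylosome, averaged 151 ± 11.3 against 99.8 ± 16 CPM (0.61) and 143 ± 11.5 against 104 ± 10.5 CPM (0.46). Carm1, another arginine methyltransferase, changed by 0.39, and Prmt3 by -0.35. Of 15 m6A writer, reader and demethylase genes 6 rose and 1, Alkbh5, fell. The genes higher were 2 without the replicate number and 3 without the pEx5 control library of replicate 1. Mettl3, the catalytic writer, averaged 52.7 ± 3.81 against 37.0 ± 2.69 CPM (0.51), and Alkbh5, a demethylase, 152 ± 21.7 against 208 ± 15.9 CPM (-0.46). The count of 1 gene that fell was 2 with DESeq2 size factors, with library totals, with all 12 nuclear libraries or without the mEx5 knockdown library of replicate 1.

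**Figure D4:**
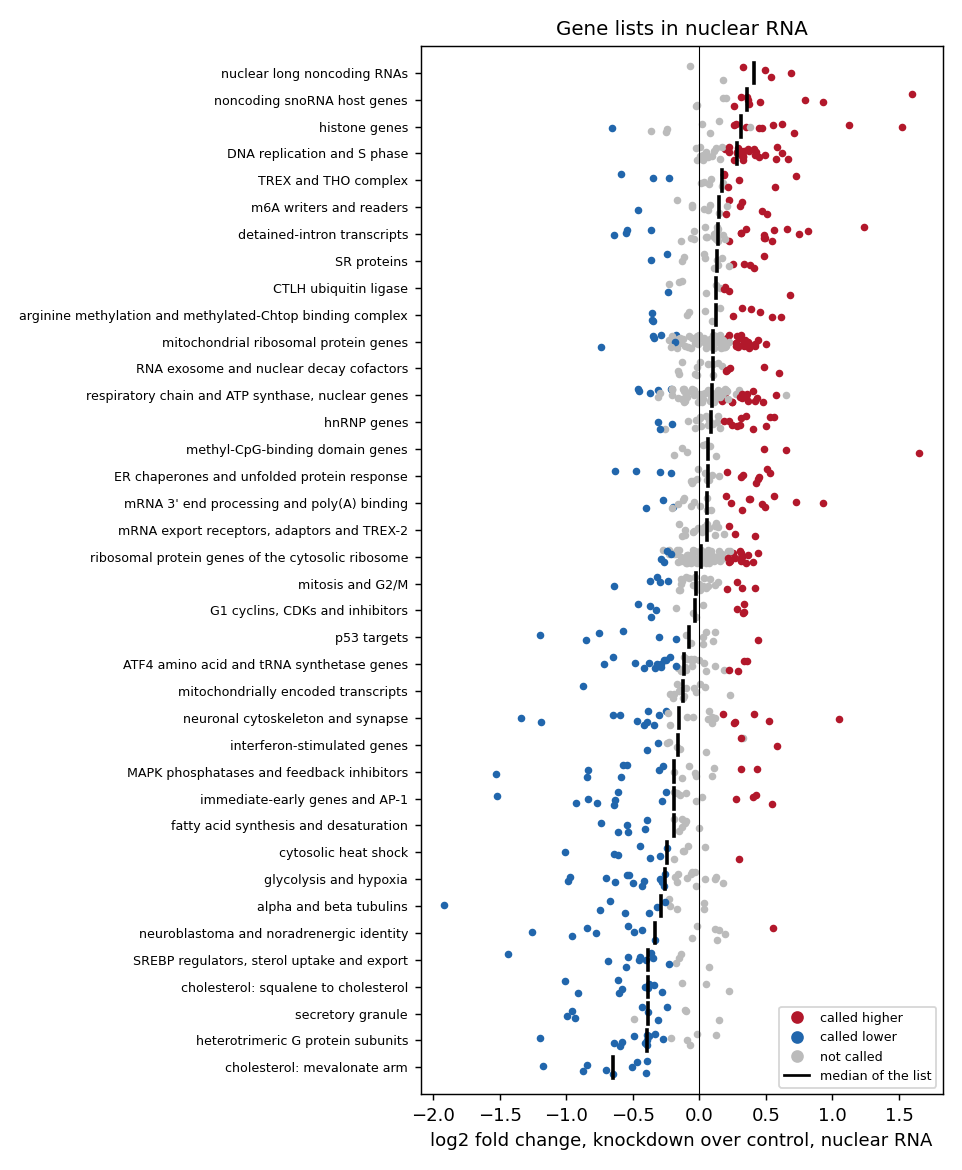
Log2 fold change of knockdown over control in nuclear RNA (horizontal axis) for the tested members of each gene list, with red for called higher, blue for called lower, grey for not called and a black bar at the list's median. The mevalonate list lies wholly below 0 with a median of -0.65, and the replication list has a median of 0.28.

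Of 39 genes of DNA replication and S phase, 24 rose (61.5%) and none fell, against 25.1% and 23.6% of all genes tested, with a median log2 fold change of 0.28. Cdc45, of the replicative helicase, averaged 43.1 ± 2.94 in knockdown nuclei and 27.2 ± 3.65 CPM in control nuclei (0.67, SE 0.0846, adjusted p = 5.2e-05). Cdc6, a licensing factor gene, averaged 46.5 ± 4.18 and 30.4 ± 4.54 CPM (0.62), and Mcm5, of the helicase ring, 197 ± 19.6 and 131 ± 15.6 CPM (0.59). Ccne2, a cyclin E gene, and Rfc3, of the clamp loader, changed by 0.57 and 0.50. Without the replicate number 15 of the 39 were called higher. Mitosis and G2/M genes showed no common direction, with 4 higher and 5 lower of 28, or 2 lower without the replicate number. Plk1, the polo kinase gene, averaged 101 ± 6.32 against 126 ± 6.02 CPM (-0.32), and Aurkb, the aurora B gene, 69.2 ± 4.52 against 55.2 ± 5.42 CPM (0.32). Chfr, a mitotic checkpoint ubiquitin ligase, changed by 0.42 in nuclei and by -0.57 in total lysate, a called difference of 0.96 (adjusted p = 1.4e-06).

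Of 18 histone genes with deposited counts, 10 rose and 1 fell. Of 54 further histone genes measured in RPKM only, 8 rose and 5 fell, against 20.8% higher and 11.2% lower among all such genes. Histone transcripts of S phase lack poly(A) tails and are close copies of each other, so those counted here are uncertain. Hist3h2ba averaged 58.2 ± 17.6 in knockdown nuclei and 27.1 ± 9.23 CPM in control nuclei (1.12), H2afx, the H2A.X gene, 154 ± 26.8 and 94.3 ± 13.3 CPM (0.71) and H3f3b, an H3.3 gene, 788 ± 131 and 516 ± 112 CPM (0.62). Counts of 4 higher without the replicate number and of 6 without the mEx5 knockdown library of replicate 2 were found, and the gene that fell was not called without the replicate number or without replicate 2 of either pEx5 group, and 2 fell without replicate 1 of either knockdown group.

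Zinc finger genes named Zfp rose in 83 of 205 cases (40.5%) and 15 fell, against 25.1% and 23.6% of all genes tested, and their median was 0.18. Zfp386 had 43.8, 40.9, 47.4 and 46.7 CPM in knockdown nuclei against 19.3, 23.8, 20.3 and 18.4 CPM in control nuclei (1.12, SE 0.0988). Zfp397, Zfp160, Zfp773 and Zfp961 changed by 1.06, 1.04, 0.95 and 0.93. Without the replicate number 51 were called higher and 7 lower, and 8 lower without the mEx5 knockdown library of replicate 2. A run of such genes on chromosome 2, chosen after its values were seen, moved as a block between 175010241 and 178078476. Of its 15 tested genes 13 rose and none fell, at a median of 0.92, and the groups did not overlap in 13. Gm4631 had 257, 267, 254 and 257 CPM in knockdown nuclei against 84.9, 97.2, 65.8 and 58.2 CPM in control nuclei (1.78, SE 0.103). Gm14410 averaged 43.9 ± 9.22 against 17.9 ± 2.35 CPM (1.28), and 2210418O10Rik 60.2 ± 1.52 against 25.7 ± 6.69 CPM (1.25). These genes are near copies of each other, and reads may be shared among them. Stx16, Gnas and Ctsz, which lie before this run on the chromosome, changed by 0.25, -0.49 and -0.73.

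Long noncoding RNAs as a class were higher in knockdown nuclei. Of 167 tested, 98 (58.7%) rose and 9 (5.39%) fell, with a median of 0.45, while 8923 protein-coding genes had 2183 higher and 2148 lower and a median of 0.01. Of 13 noncoding snoRNA host genes 9 rose and none fell, or 5 without the replicate number. Snhg8 averaged 31 ± 12.6 in knockdown nuclei and 18.1 ± 8.77 CPM in control nuclei (0.79), and Snhg3 9.04 ± 3.47 and 4.77 ± 2.43 CPM (0.93) and in both the groups overlapped, with replicates of 1 group far apart. Among long noncoding RNAs listed as nuclear, 4 of 6 tested rose. Ftx, an activator of Xist, averaged 88.3 ± 6.6 against 60.8 ± 2.68 CPM (0.54), and Tug1 133 ± 28.1 against 83.8 ± 25.2 CPM (0.69), while Malat1, of nuclear speckles, was not called at 0.18. Tug1 changed by 1.08 in total lysate and by 1.37 in cytoplasm, and neither difference from its nuclear change was called. The count of 4 was 2 without the replicate number, and 2 without replicate 1 of the mEx5 control or replicate 2 of the pEx5 control.

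Small structured RNAs were also chosen after their values were seen. Of the 14 snRNA, snoRNA, scaRNA, ribozyme and related genes with deposited counts, 7 rose and none fell, while the U11 snRNA gene Rnu11, measured in RPKM only, was called lower. Rpph1, the RNA of RNase P, had 12, 4.82, 5.50 and 4.00 CPM in knockdown nuclei against 2.93, 1.30, 1.71 and 0.945 CPM in control nuclei (1.94, SE 0.181, adjusted p = 5.8e-06). Rnu1a1, a U1 snRNA gene, averaged 5.03 ± 0.643 against 1.28 ± 0.706 CPM (1.92), and Rn7sk, the RNA that holds the elongation factor P-TEFb inactive, 6.67 ± 4.65 against 2.18 ± 1.17 CPM (1.45). In total lysate Rpph1, Rnu1a1 and Rn7s1 changed by 1.95, 1.61 and 2.17. These RNAs have no poly(A) tail in their mature form, so their share in a poly(A) library can move with how the library was made. That share, over a chosen set of such RNAs, was 0.0176% to 0.0315% of counts in knockdown nuclei and 0.00504% to 0.0110% in control nuclei. Most of it was Rn7s1, at 227 against 64.0 CPM, and the part of library making in the result was not tested. Among the most abundant features, Gm42418, on chromosome 17, averaged 8320 ± 1593 against 4060 ± 237 CPM (1.02), and Gm42860, a feature of chromosome 5, 30740 ± 2765 against 20810 ± 2395 CPM (0.56). They were chosen after their values were seen, and leaving the 10 most abundant features out of the library sizes gave 2212 genes higher and 2225 lower.

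Neuronal and noradrenergic genes fell more often than they rose. Of 15 neuroblastoma and noradrenergic identity genes 8 fell and 1 rose, with a median of -0.33. Slc18a2, the vesicular monoamine transporter gene, had 107, 135, 100 and 152 CPM in knockdown nuclei against 285, 297, 262 and 322 CPM in control nuclei (-1.25, SE 0.0806, adjusted p = 5.8e-07). Ret, a growth factor receptor gene, averaged 307 ± 68.3 against 542 ± 66.6 CPM (-0.84), and Alk, a receptor kinase gene mutated in neuroblastoma, 38.9 ± 8.09 against 66.2 ± 9.12 CPM (-0.77). Tbx2, a core factor of neuroblastoma, rose, at 66.9 ± 25.5 against 45.1 ± 16 CPM (0.55), with overlap between the groups, but above the control library of the same line and number in 4 of 4 pairs. The count of genes that rose was 2 with DESeq2 and 3 without the pEx5 knockdown library of replicate 1.

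Of 26 genes of the neuronal cytoskeleton and synapse 11 fell and 6 rose, or 7 lower without the replicate number. Syn2, synapsin 2, had 51.3, 65.0, 26.1 and 37.1 CPM in knockdown nuclei against 126, 135, 75.7 and 105 CPM in control nuclei (-1.34, SE 0.0911). Dpysl3, a growth cone protein gene, averaged 230 ± 51.1 against 518 ± 66.3 CPM (-1.19), and Map2, a dendritic microtubule protein gene, 43.0 ± 9.03 against 66.5 ± 9.14 CPM (-0.65). Secretory granule genes fell in 7 of 11 cases and none rose. Vgf, a granule peptide precursor, had 737, 672, 720 and 799 CPM against 1149, 1098, 1821 and 1641 CPM (-0.93, SE 0.109). The granins Chgb and Scg2 averaged 209 ± 28.3 against 405 ± 56.4 CPM (-0.95) and 154 ± 43.2 against 322 ± 143 CPM (-0.99), while Chga was not called at 0.15.

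More tubulin and G protein genes fell than did not pass the test. Of 12 tubulin genes (alpha and beta, with the gamma-tubulin Tubg1) 7 fell and none rose, Tuba8 furthest. Tuba1b at 0.03, Tuba1c at 0.04 and Tubb3 at -0.22 were not called. Tubb2a and Tubb2b, near-identical neuronal beta-tubulins that can share reads, averaged 182 ± 17.6 in knockdown nuclei against 308 ± 45.9 CPM in control nuclei (-0.75) and 185 ± 9.80 against 297 ± 49.3 CPM (-0.67). Of 17 heterotrimeric G protein subunit genes 12 fell and none rose, or 7 in the fit of 4 groups, with 1 higher without the pEx5 control library of replicate 1. Gnai2, an inhibitory alpha subunit, had 56.9, 65.6, 49.7 and 69.9 CPM against 120, 135, 137 and 162 CPM (-1.19, SE 0.0796). In total lysate it changed by -1.87, a called difference of 0.65. Gnai3 and Gna13, both alpha subunits, changed by -0.64 and -0.60.

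Among 19 immediate-early genes, 9 fell and 4 rose, or 1 higher without the replicate number and 5 lower in the fit of 4 groups. These genes respond to growth factors within minutes through MAP kinase. Egr1 had 150, 95.2, 116 and 49.9 CPM in knockdown nuclei against 241, 154, 203 and 115 CPM in control nuclei (-0.84, SE 0.0963). Each knockdown library lay below the control library of its own line and number, while the groups overlapped. Junb, an AP-1 subunit, averaged 90.5 ± 20.7 against 152 ± 10.9 CPM (-0.77), and Maff, a small Maf factor, 18.9 ± 1.78 against 36.3 ± 5.85 CPM (-0.92). The 4 that rose, named after their values were seen, were Klf6, Gadd45b, Atf3 and Klf4, at 0.54, 0.43, 0.41 and 0.28. Of 17 MAPK phosphatases and feedback inhibitors 8 fell and 2 rose, or 1 higher without the replicate number, with Dusp6 at -0.83, Dusp10 at -0.59 and Phlda1 at -0.84. In 9 of the 19 immediate-early genes, and in 4 of these 17, the nuclear change lay below that of total lysate in a called way, against 8.69% of all genes tested.

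About as many heat shock and glycolysis genes fell as did not pass the test. Of 13 heat shock genes 7 fell and 1 rose. The list is cytosolic but for the mitochondrial chaperonin genes Hspd1 and Hspe1, not called at -0.09 and -0.11. Hsp90aa1, the inducible Hsp90 gene, had 686, 760, 683 and 676 CPM in knockdown nuclei against 1387, 1353, 1427 and 1465 CPM in control nuclei (-1.01, SE 0.0790, adjusted p = 1.8e-06). Hspa8, the constitutive Hsc70 gene, averaged 1413 ± 137 against 1918 ± 155 CPM (-0.44), and the cochaperone genes Bag3 and Dnajb1 changed by -0.61 and -0.64. Of 25 glycolysis and hypoxia genes 13 fell and none rose, or 7 lower without the replicate number and 1 higher without the pEx5 control library of replicate 1. Slc2a3, a neuronal glucose transporter gene, averaged 139 ± 52.9 against 261 ± 48.7 CPM (-0.97). Hk1 (hexokinase) and Aldoa (aldolase) changed by -0.63 and -0.54, while Gapdh at -0.18 and Eno1 at -0.09, both glycolytic enzyme genes, were not called. Gpi1, the glucose phosphate isomerase gene, averaged 634 ± 90.0 against 1039 ± 178 CPM (-0.70), while its change of -0.04 in total lysate was not called, and the difference of -0.69 was (adjusted p = 0.00082).

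Stress response lists were mixed. Of 14 p53 targets 6 fell and 1 rose: Gdf15, a stress cytokine, averaged 38.3 ± 7 in knockdown nuclei and 88.1 ± 13.4 CPM in control nuclei (-1.19), Ddit4, an mTOR inhibitor gene, 255 ± 26.9 and 427 ± 34.7 CPM (-0.75), and Bax, which permeabilises mitochondria, rose at 126 ± 14.7 and 92.9 ± 11.6 CPM (0.44). Of 32 ATF4-driven amino acid genes 13 fell and 4 rose, or 2 higher without the replicate number, with the amino acid transporter genes Slc7a5 and Slc3a2 at -0.65 and -0.48. Of 23 ER chaperone and unfolded protein response genes 8 rose and 4 fell, or 2 lower without the replicate number. Hyou1, an ER chaperone gene, averaged 621 ± 39.8 against 438 ± 54.9 CPM (0.51), and Manf, a secreted ER stress protein gene, 96.4 ± 17.9 against 66.4 ± 11.8 CPM (0.54). Pdia6, a disulfide isomerase gene, averaged 151 ± 3.77 against 236 ± 41.5 CPM (-0.63). In total lysate Pdia6 changed by -1.35, a called difference of 0.69.

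Most genes of the ribosome and the respiratory chain did not pass the test. Of 82 ribosomal protein genes 14 rose and 4 fell, with a median of 0.01. Without the replicate number 5 rose and none fell. As single libraries were left out, 6 rose without the pEx5 knockdown library of replicate 2, and the counts of genes that fell ranged from 0 to 12, with 12 without the mEx5 control library of replicate 1 and 0 without the pEx5 knockdown library of replicate 1. Of 81 nuclear genes of the respiratory chain 17 rose and 5 fell, and none of either was called without the replicate number. Those that fell were 9 without the mEx5 control and 11 without the mEx5 knockdown library of replicate 1. Of 15 mitochondrially encoded transcripts 1 was called, mt-Nd6, a light-strand transcript, at 27.3, 12.1, 20.5 and 6.92 CPM in knockdown nuclei against 57.2, 22.4, 38.4 and 9.90 CPM in control nuclei (-0.87). Its level was higher in replicate 1 than in replicate 2 of every group, it was not called without the replicate number, and without single libraries up to 5 mitochondrial transcripts were called lower, 5 of them without the mEx5 control library of replicate 1. In total lysate 11 of the 15 rose (32.3% of all genes did), and in 9 the nuclear change lay below that of total lysate, at a median difference of -0.49.

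Most genes called in nuclei were called in the same direction in total lysate. The fractions come from the same cultures and are not independent. Of the 2317 genes that rose in nuclei, 1601 (69.1%) rose in total lysate and 114 fell. Of the 2176 that fell in nuclei, 1761 (80.9%) fell in total lysate and 24 rose. Total lysate had more calls, 2980 higher and 2983 lower, of which 53.7% and 59.0% were called in the same direction in nuclei. By the test of the difference, the nuclear change lay above that of total lysate in 894 genes (9.68%) and below it in 803 (8.69%). This test has no term for the culture that the fractions share. With culture as a block 1221 genes lay above and 1293 below. With library totals alone as the scale the split was 733 above and 1054 below, and without the replicate number it was 250 and 117. Without the mEx5 control library of total lysate, replicate 1, 531 lay below, and without the pEx5 knockdown library of total lysate, replicate 1, 509. Against cytoplasm, where the pEx5 control has 1 library, 925 genes (10%) lay above and 797 (8.63%) below, or 594 and 1480 with library totals and 253 and 125 without the replicate number. Leaving out the mEx5 knockdown library of cytoplasm, replicate 1, left 388 above and 167 below. Those below were 385 without replicate 1 of the mEx5 control and 455 without replicate 2 of the mEx5 knockdown among cytoplasm libraries, and 516 without the pEx5 control library of nuclei, replicate 2. The nuclear change lay above that of both other fractions in 668 genes and below both in 508.

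After Chtop itself, the genes whose nuclear change stood furthest above that of total lysate were Rdm1, Pias3, Sapcd1, Phykpl and Zfp985. Rdm1 changed by 2.02 in nuclei and by 0.62 in total lysate, a difference of 1.36 (adjusted p = 4.9e-05). Pias3, a SUMO ligase gene, averaged 40.8 ± 3.82 in knockdown nuclei and 27.7 ± 6.05 CPM in control nuclei (0.57) but changed by -0.63 in total lysate, a difference of 1.16. Sapcd1 had 13.6 ± 2.24 and 14 ± 1.70 CPM in nuclei (-0.05, not called) and changed by -1.22 in total lysate. Phykpl, a phospholyase gene, averaged 21.5 ± 2.87 and 9.02 ± 1.20 CPM in nuclei (1.24), with 0.07 in total lysate, not called. In the authors' deposited table the corresponding differences were 1.53 for Chtop, 1.03 for Rdm1, 1.00 for Pias3, 1.20 for Sapcd1 and 1.34 for Phykpl. Against cytoplasm Mbd6 also stood among the 6 furthest, at 1.30.

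The genes furthest below total lysate were Snhg3, mt-Nd3, Mcts2, Tpt1-ps3, mt-Nd4l and Hist2h2aa1, with differences of -1.11 to -0.91. Of these, mt-Nd3 and mt-Nd4l are mitochondrially encoded and not made in nuclei, and the part of fraction purity in their differences was not tested. Snhg3 rose in both fractions, by 0.93 in nuclei and by 2.01 in total lysate. Mcts2, a retrogene copy of Mcts1, averaged 12.1 ± 1.19 in knockdown nuclei and 10.2 ± 1.08 CPM in control nuclei (0.24, not called) but changed by 1.15 in total lysate. Tpt1-ps3 is a pseudogene and Hist2h2aa1 a histone gene with near copies, so their reads are uncertain. All of these but Mcts2 lost the call without the replicate number. Against cytoplasm the lowest were the mitochondrially encoded mt-Nd6, and Xkr7, Akap9, Plagl2, Zfp367 and Mcts2, at -1.14 to -0.92. Akap9, a Golgi and centrosome scaffold gene, averaged 93.5 ± 15.8 and 119 ± 9.95 CPM in nuclei (-0.36) with a difference of -0.94 from its cytoplasmic change. Gid4, of the CTLH ubiquitin ligase, rose in both fractions, by 0.68 in nuclei and by 1.49 in total lysate (difference -0.84, adjusted p = 1.3e-05).

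**Figure D5:**
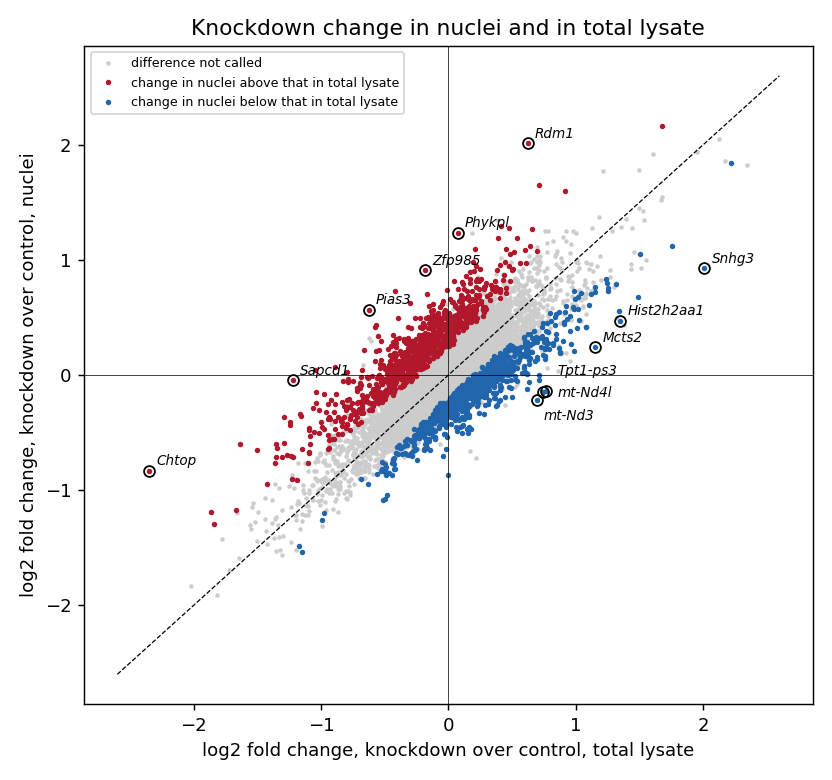
Log2 fold change of knockdown over control in nuclei (vertical axis) against that in total lysate (horizontal axis) for each gene, with red and blue for genes whose change in nuclei lies above or below that in total lysate, and the dashed line where both are equal. Circled genes are the 6 furthest to each side, with Chtop at -0.83 in nuclei and -2.35 in total lysate.

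The knockdown change differed between the lines in 999 genes (10.8%). In 489 the pEx5 change lay above the mEx5 change and in 510 below it, and the lines had opposite signs in 535. Among genes that rose in nuclei and differed between lines, the change was larger in pEx5 cells in 162 and in mEx5 cells in 31, and among those that fell the counts were 176 and 55. Tug1 changed by 1.07 in pEx5 and by 0.31 in mEx5 cells, Cdkn2a, a cell-cycle inhibitor gene, by -0.70 and -0.05, and Cenpf, of the kinetochore, by -0.34 and -0.94. These counts rest on the replicate number as a term. Without it edgeR called no gene (654 at an unadjusted p under 0.05, against 2546 with it), and DESeq2 with it called 593. Single libraries left out gave 205 without the mEx5 control, 109 without the mEx5 knockdown, 75 without the pEx5 control and 403 without the pEx5 knockdown library of replicate 1, and 388 without the pEx5 control library of replicate 2.

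Genes that the authors' deposited table marks as overlapping Chtop iCLIP, a map of the RNA sites bound by the protein, were called somewhat more often than others, a difference that was not tested. Of 4484 marked genes 1136 rose and 1180 fell, 51.7% in all, with a median of 0.00. Of 4754 unmarked genes 1181 rose and 996 fell, 45.8% in all, with a median of 0.02. Marked genes were more abundant, at a median of 79.4 against 32 CPM. Among the most abundant genes, 53.9% of 2192 marked and 49.0% of 887 unmarked genes were called, and among the least abundant, 44.5% of 559 and 43.6% of 2521. Chtop, Mbd6, Mat2a and Pabpn1 carry the mark, and Rdm1, Tuba8 and Msmo1 do not.

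Among features of protein-coding genes, the length of the gene on the chromosome went with direction. Of the 2975 shortest genes, up to 14090 bases, 947 rose and 518 fell, and of the 2974 longest, above 38420 bases, 484 rose and 956 fell. The median span was 16691 bases among genes that rose and 32357 bases among genes that fell. Over 8923 genes Spearman's rank correlation between span and log2 fold change was -0.19, given as a description because genes share libraries. For transcript length, exon number and GC content it was -0.03, -0.03 and -0.01.

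Genes outside the count table were measured in RPKM only, and were tested on log2(RPKM + 0.1), a scale that understates the change of low genes. Of 6475 such genes 1350 rose (20.8%) and 724 fell (11.2%). Single libraries left out gave 793 to 999 higher and 461 to 567 lower, with 793 without the pEx5 knockdown library of replicate 1 and 461 without the pEx5 control library of replicate 2. Galnt15, for a glycosyltransferase, had 0.13, 0.20, 0.37 and 0.91 RPKM in knockdown nuclei against 1.92, 2.27, 3.87 and 6.80 RPKM in control nuclei (-2.99, SE 0.185, adjusted p = 0.0014). Ppy, for pancreatic polypeptide, had 0, 2.06, 0 and 0.76 RPKM against 13.2, 19.6, 2.91 and 4.17 RPKM, and lost its call without the pEx5 knockdown library of replicate 1 (adjusted p = 0.057). Its neighbour Pyy and the related Npy, both chosen after their values were seen, had 1.41, 3.55, 0.96 and 0.90 RPKM against 19.4, 30.6, 3.34 and 4.31 RPKM, and 0.73, 0.12, 0.17 and 0.13 RPKM against 1.35, 0.97, 4.39 and 3.68 RPKM. Kcnn3, a potassium channel gene, and Mycn, the neuroblastoma oncogene, were chosen likewise. Kcnn3 had 0.67, 1.35, 0.63 and 1.11 RPKM against 5.86, 5.84, 5.11 and 6.93 RPKM (-2.59, SE 0.170), with no overlap. Mycn had 2.26, 4.75, 1.27 and 2.65 RPKM against 6.68, 9.34, 3.27 and 5.48 RPKM (-1.20, SE 0.120), with each knockdown library below the control library of its own line and number.

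Several of the RPKM genes furthest from 0 are short features listed at 0 in 1 group, so no fold is given. Mir351, a microRNA precursor gene of the X chromosome, had 3.59, 2.88, 8.57 and 3.2 RPKM in knockdown nuclei and was listed at 0 in all control nuclei. Duxbl2, a homeobox gene with near copies, had 1.13, 0.73, 1.22 and 1.07 RPKM and was likewise listed at 0 in control nuclei. Mir701, Lgals1-ps2 and H2al2a were called higher, and Rnu11, n-R5s106 and Ott lower, but each lost the call in at least 5 of the 8 fits that leave out a library, so their values are not read further. Of the imprinted and nuclear RNAs, Kcnq1ot1 averaged 2.72 ± 0.609 RPKM in knockdown and 1.40 ± 0.131 RPKM in control nuclei (0.89), and Meg3 4.82 ± 0.482 and 8.12 ± 0.707 RPKM (-0.74), both without overlap and both chosen after their values were seen.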

How the data were processed

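Nuclear poly(A) RNA-seq of 4 knockdown and 4 control libraries was analysed. The authors deposited whole-number counts for 9239 genes, RPKM values for 54393 genes and a table of log2 differences with an iCLIP mark whose origin is not stated; the submitters' processing notes name mm10, Salmon 0.14.1 and DESeq2 without a version. Whether counting used strand is not stated. The column of 1 library matched no sample label and was not used. Library depth is given above in total counts, and standard errors come from the spread left between libraries after the terms of the fit.

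Counts were filtered with filterByExpr, scaled by TMM and fitted with edgeR 4.0.16 (R 4.3.3; robust quasi-likelihood test, terms for line, replicate number and condition), with Benjamini-Hochberg adjustment over all genes tested and a limit of 0.05. Differences between lines and between fractions were interaction terms. Genes with RPKM only (mean of at least 0.5) were tested with limma 3.58.1 on log2(RPKM + 0.1). Fits were tested on simulated data. The labels call the numbers biological replicates, and same-numbered libraries deviated together (6 correlations of deviations from the group mean, 0.609 to 0.72), so the number stands in the model. No 2 nuclear libraries were copies of each other.

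Named genes are Chtop, the 15 highest and 15 lowest called genes with at least 5 CPM and no overlap between groups, up to 5 called members of each list, the 6 highest and lowest of each difference between fractions and 5 each way among RPKM genes, without predicted genes; other names are marked as chosen after their values were seen. List members not called, and counts of a list, are given as values. The groups, gene lists and tests were chosen with earlier results of these data known. Alternatives were DESeq2 1.42.0, other scalings, filters, pseudocounts and blocks, and leaving out each library. Some genes are not reported here.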

Additional observations from a re-analysis of the deposited data

Results flagged for a closer look

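Of 207 named genes tested for a difference between the lines, 31 differed by the interaction term (adjusted p under 0.05, edgeR's quasi-likelihood test), and all 31 lost the call without the replicate number as a term. Values are pEx5 minus mEx5 differences of the log2 fold change. The pEx5 change lay below the mEx5 change in Igfbp7 (-1.05), Pmvk (-0.57), Mvd (-0.39), Gdf15 (-0.71), Cdkn2a (-0.65), Ier2 (-0.61), Slc7a5 (-0.44), Pdia6 (-0.43), Chgb (-0.62), Stmn4 (-0.59), Scg2 (-0.44), Vgf (-0.51), Scg3 (-0.47), Tubb2a (-0.50), Tubb2b (-0.49) and Tuba1a (-0.42). The same held for Ube2c (-0.51), Phlda3 (-0.55), Bbc3 (-0.52), Bax (-0.48) and H2afx (-0.45). The pEx5 change lay above the mEx5 change in Wipi1 (0.46), Xpo1 (0.36), Tardbp (0.40), Mat2a (0.42), Ogt (0.45), Cpsf6 (0.36), Cpsf7 (0.37), Tug1 (0.76), Cenpf (0.60) and Zfp397 (0.58). Among groups of 4 libraries, H2afj had 1 far from the rest, the pEx5 control library of replicate 2 at 34.4 CPM, where the other control libraries had 43.0 to 43.4 CPM. It was 1 of 62 such groups, and chance gives about 1 in 20.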

How the results depend on the processing

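All 219 named nuclear changes checked were called in the main fit, and most were chosen for their size, so a reversal was unlikely from the start. Over 16 alternatives none of them turned round, which says nothing about the directions of other genes. Of these genes 39 lost the call at least once, 36 of them without the replicate block and 21 when a library was left out. Without the replicate block 1435 genes rose and 1423 fell (1440 and 1422 with 4 groups), no gene differed between lines (0), and the nuclear change lay above and below that of total lysate in 250 and 117 genes and that of cytoplasm in 253 and 125. DESeq2 called 593 genes between lines. With culture as a block 1221 genes lay above and 1293 below total lysate, and 539 above and 357 below cytoplasm. With library totals as the scale, 594 lay above and 1480 below cytoplasm. Leaving out each library gave 1846 to 2295 genes higher and 1797 to 2238 lower in nuclei, 75 to 1227 that differed between lines, 653 to 1152 above and 509 to 829 below total lysate, 388 to 973 above and 167 to 816 below cytoplasm, and 793 to 999 higher and 461 to 567 lower among RPKM genes. The other changes of scale, filter and pseudocount kept these counts within 1.5 times. Of 80 list counts under 16 alternatives, 1147 stayed within that range and 133 did not. Leaving the 10 most abundant genes out of the library sizes was chosen after seeing the data. The causes were not tested. Low counts limit RPKM genes and small RNAs most.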

Other observations

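Lists not described above were small or mixed. Of 10 methyl-CpG-binding domain genes tested 3 rose and none fell. Beside Mbd6, these were Baz2b, a chromatin reader gene, at 79.9 ± 10.0 CPM in knockdown nuclei and 50.4 ± 1.46 CPM in control nuclei (log2 fold change 0.65), and Setdb1, a histone H3 lysine methyltransferase gene, at 166 ± 12.5 and 119 ± 13.7 CPM (0.48). The other 7 members were not called. Of 11 genes of the CTLH ubiquitin ligase 4 rose and 1 fell, or 1 and 0 without the replicate number. Gid4, its substrate receptor, averaged 52.1 ± 1.95 CPM in knockdown nuclei and 32.5 ± 2.89 CPM in control nuclei (0.68).

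Of 12 cyclin, CDK and inhibitor genes of G1 4 rose and 4 fell, or 2 higher without the replicate number. Cdk2, the kinase of S phase entry, averaged 77.8 ± 3.80 CPM in knockdown nuclei and 61.7 ± 6.32 CPM in control nuclei (0.34), and Rbl2, a retinoblastoma family gene, 17.6 ± 2.75 and 24.1 ± 3.04 CPM (-0.46). Of 10 interferon-stimulated genes 2 rose and 2 fell. Ifi27 averaged 97.8 ± 23.4 CPM in knockdown nuclei and 64.3 ± 8.96 CPM in control nuclei (0.59), without overlap. Of 77 mitochondrial ribosomal protein genes 20 rose and 6 fell, or 7 and 3 without the replicate number, and 13 rose without the mEx5 control library of replicate 1.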
